A study of Mus musculus with 28 samples.

Results

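Under the limits used here, 4 dense runs of closely neighbouring acetylated intervals held 109 of 125509 intervals (0.0868%) in facial neural crest. The number of runs follows from these limits on gap, size and score. The intervals mark acetylation of histone H3 at lysine 27 (H3K27ac), measured by chromatin immunoprecipitation sequencing in cells of the cranial neural crest, an embryonic population that migrates into the face and builds much of its skeleton. Intervals on chromosomes 1 to 19 and X were sorted by position, and neighbours with a gap of 5 kb or less were joined into runs. Members were chosen by these positions and by score: they are the intervals of runs with 15 or more intervals and a median score below 1000. Number, density and score are therefore given as a description. Joining gave 75283 runs, of which 43682 (58%) were single intervals and 5 held 15 or more. Of these 5, 4 had a median score below 1000, with 61, 17, 16 and 15 intervals.

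The series holds 28 libraries in 25 labelled groups, and 4 of them enter the list. They come from wild-type embryos at E10.5, with 1 H3K27ac library for each of the cell subpopulations FNP, Mx, Md and PA2, collected by fluorescence-activated sorting. Their reads were merged before intervals were called, so the list has no replicates and does not say in which population a site was acetylated. The score is the authors' deposited value for each interval, set by the peak caller from its q-value. Such a value depends on sequencing depth, which is unknown here. The other 24 libraries were not analysed here. Of 10 cranial neural crest markers, 10 had an interval within 1 kb of an annotated gene end, against 65.8% of the 21627 protein-coding genes on these chromosomes. The counts were 9 of 10 for endothelial, 6 of 9 for muscle, 5 of 10 for epithelial and for neuronal, and 4 of 10 for blood markers. None of these marker genes lay in 1 of the 4 dense runs. Only 7 of the 21627 protein-coding genes (0.0324%) did, so 0 is near the background.

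H3K27ac is deposited at active promoters and enhancers, and dense groups of acetylated sites around a gene are often read as clustered enhancers. Tandem repeat arrays can also give dense groups of intervals, because the same unit recurs along the chromosome. In an array the reads of near-identical units cannot always be assigned to 1 copy. How reads that match several places were treated is not given in the sources used here. The runs are named below by the gene or locus that holds or borders them. Positions are in GRCm38, and promoter sequences are from RefSeq (GRCm38.p6), each with 250 bases before and 50 bases after an annotated start.

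The promoters shown were chosen because they lie under a member, belong to a gene that holds a run, or recur inside a run. The first is the promoter of 4933407K13Rik (Dxz4), chrX:75764650-75764949 on the minus strand, which lay entirely under a member. The next is a promoter of the long non-coding gene Gm40371, chr6:47651271-47651570 on the minus strand, also entirely under a member. The last is that of Igdcc3, chr9:65140904-65141203 on the plus strand, upstream of the run in that gene. Capitals mark the bases from the start site on.
4933407K13Rik: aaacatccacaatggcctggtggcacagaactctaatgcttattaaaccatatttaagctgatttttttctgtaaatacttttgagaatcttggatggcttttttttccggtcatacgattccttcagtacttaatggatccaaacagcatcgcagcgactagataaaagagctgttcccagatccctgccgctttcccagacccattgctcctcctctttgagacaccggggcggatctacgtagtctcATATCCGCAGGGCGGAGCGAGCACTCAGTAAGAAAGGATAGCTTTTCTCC
Gm40371: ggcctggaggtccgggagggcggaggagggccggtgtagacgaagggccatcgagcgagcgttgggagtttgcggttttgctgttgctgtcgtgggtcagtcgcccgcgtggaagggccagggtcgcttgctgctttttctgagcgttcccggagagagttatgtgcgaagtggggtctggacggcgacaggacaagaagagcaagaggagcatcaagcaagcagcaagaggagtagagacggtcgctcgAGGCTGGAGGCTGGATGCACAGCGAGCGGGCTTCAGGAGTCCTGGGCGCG
Igdcc3: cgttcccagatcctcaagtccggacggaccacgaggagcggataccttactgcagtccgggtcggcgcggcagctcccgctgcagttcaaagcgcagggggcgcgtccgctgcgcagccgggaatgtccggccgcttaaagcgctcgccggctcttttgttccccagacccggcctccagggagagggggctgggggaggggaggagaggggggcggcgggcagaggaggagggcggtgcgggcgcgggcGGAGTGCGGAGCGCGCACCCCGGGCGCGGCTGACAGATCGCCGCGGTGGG

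Another promoter recurred without a change. The table held 4 promoters with the same 300 bases, and all 4 lay in the Rn4.5s run. They belong to Gm40369 (from its second listed start, chr6:47653742-47654041), Gm40367 (chr6:47662342-47662641), Gm36327 (chr6:47675332-47675631) and Gm40364 (chr6:47679657-47679956), all on the plus strand. A close copy, with 297 identical bases, 2 mismatches and 1 gap base, belonged to Gm52861 (chr6:47738587-47738886, plus strand), 52.1 kb beyond the run. No promoter of any other gene among the 32851 in the table shared 30 or more words of 30 bases with them. Capitals mark the bases that differ between the copies.
Gm40367: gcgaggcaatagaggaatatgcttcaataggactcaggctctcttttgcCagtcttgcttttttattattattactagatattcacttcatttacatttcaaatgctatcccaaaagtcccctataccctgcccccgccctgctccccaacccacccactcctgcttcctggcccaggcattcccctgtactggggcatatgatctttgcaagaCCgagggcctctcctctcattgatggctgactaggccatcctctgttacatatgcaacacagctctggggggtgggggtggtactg
Gm52861: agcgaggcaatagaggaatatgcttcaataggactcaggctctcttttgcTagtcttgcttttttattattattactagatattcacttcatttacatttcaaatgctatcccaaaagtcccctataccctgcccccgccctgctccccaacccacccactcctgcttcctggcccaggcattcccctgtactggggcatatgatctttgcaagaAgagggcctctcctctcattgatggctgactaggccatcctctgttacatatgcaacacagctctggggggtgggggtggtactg

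Short motifs were searched on both strands of these 5 promoters, and none was found. CAGATG is in 17.2% of all promoters of the table and TAATTA in 5.29%. GCCNNNGGC is in 16.6%, TGANTCA in 7.81% and AGGTCA in 16.3%. Their absence says only that these letters are not in the windows shown.

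The longest run lay between genes on chromosome 6 (114490723 to 114637280) and is called the Hrh1-Atg7 run. It held 61 intervals over 147 kb, 56% of all members. Hrh1, which encodes a histamine receptor, ended 7.42 kb to its left. Atg7, which encodes an enzyme of autophagosome formation, began 5.85 kb to its right. No gene of any kind was annotated in the run, which filled 91.7% of the 160 kb that separate these genes. Scores ran from 124 to 1489, with a median of 522 and quartiles of 370 and 708. Only 4 intervals had a score of 1000 or more, with values of 1112, 1423, 1101 and 1489, and none was below 100. Widths ran from 156 to 675 bp with a median of 334 bp. The last interval (114636606 to 114637280) had both the highest score and the greatest width, and lay on the Atg7 side.

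Intervals of the Hrh1-Atg7 run recurred at an almost fixed distance. Of the 60 distances between the starts of successive intervals, 54 lay within 100 bp of the step that fitted this run best. These ranged from 2346 to 2538 bp, with a median of 2440 bp and an SD of 47.5 bp. Their range and SD are limited by that selection. The other 6 were 2147, 706, 1902, 2125, 2339 and 4960 bp, of which 2339 bp lay just outside the limit. The first 5 of these lay among the leftmost intervals. The largest, 4960 bp, spans about double the usual step, so that 1 position of the ladder had no interval. The usual step had a median of 2421 bp among the first 30 distances and 2449 bp among the last 30. The coefficient of variation of all distances was 0.169, against 0.78 in the Rn4.5s run, 0.756 in the Dxz4 run and 0.889 in the Igdcc3 run. It does not set the Rn4.5s run, whose intervals recur in pairs, clearly apart from the Igdcc3 run.

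Outside the ladder, intervals were fewer. The nearest to the left lay 11.8 kb away with a score of 66. The nearest to the right lay 5.37 kb away with a score of 1589, at the start of Atg7 (114642654 to 114643757). The 100 kb on both sides of the run held 18 intervals, 0.9 per 10 kb, while the run held 4.16 per 10 kb. The mean over all chromosomes used was 0.489 per 10 kb. These densities follow from the rule and are given as a description.

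**Figure D1:**
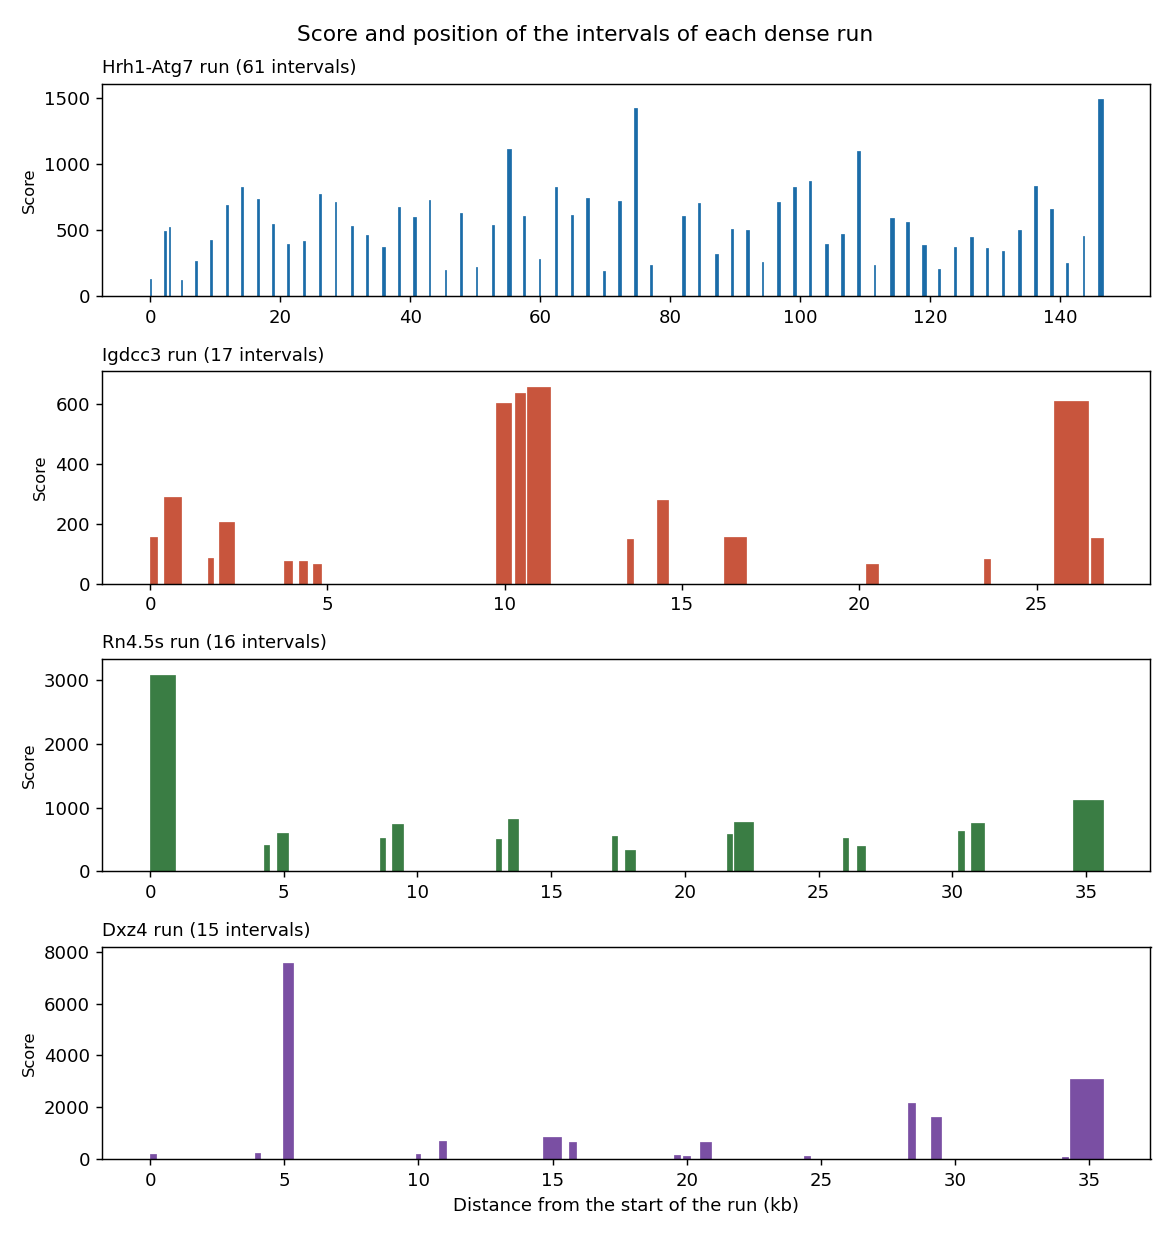
Score of each interval (vertical axis, no unit) against the distance of its start from the start of the run in kb (horizontal axis). Each bar is as wide as its interval, and each panel has its own scales. The Hrh1-Atg7 run shows regular steps of about 2.44 kb, the Rn4.5s run pairs of intervals between 2 wider ones, and the Igdcc3 run no fixed step.

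The Rn4.5s run lay on chromosome 6 (47650855 to 47686489) and held 16 intervals over 35.6 kb. Rn4.5s encodes the 4.5S RNA, a short RNA of rodents transcribed from tandemly repeated genes. It is the only copy annotated in the gene table within the run (47654921 to 47655094). The run overlapped 8 annotated genes in all. Besides Rn4.5s these were the long non-coding gene Gm40371 and 6 predicted protein-coding genes without a known function, namely Gm40369, Gm40367, Gm40365, Gm36327, Gm40364 and Gm40363. The nearest protein-coding gene to the left was Ezh2, 55.6 kb away, which encodes the Polycomb methyltransferase that is deleted in other libraries of the series. To the right it was Pdia4, 110 kb away, which encodes a disulfide isomerase of the endoplasmic reticulum.

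The intervals of this run came in 7 pairs between a single wide interval at each end. The first interval of a pair was narrow, from 185 to 205 bp, with scores from 410 to 633. The second was wider, from 316 to 708 bp, with scores from 332 to 813. The first intervals were 4308 to 4353 bp apart from start to start. Gaps were 75 to 325 bp within pairs. They were 3329 to 3514 bp between neighbouring pairs or between a pair and the single interval at an end. Second intervals were 4101 to 4575 bp apart from start to start, with a median of 4321 bp. Both interval types therefore recurred about every 4.31 kb, the second less evenly than the first. Rn4.5s ended 33 bp before the first interval of the first pair (47655128 to 47655312).

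The narrow intervals had high scores for their width. Of 9413 intervals of 185 to 205 bp that were not members, 0.425% had a score of 410 or more. The median score of the 9413 was 83 (quartiles 65 and 109). The cut of 410 is the lowest score of the 7 narrow intervals themselves, which come from a single locus, so these values are a description. The interval at the left end was 944 bp wide with a score of 3074 and covered the Gm40371 promoter shown. Another listed promoter of Gm40371 (47649279 to 47649578) lay outside the run and had no interval over it. The interval at the right end was 1103 bp wide with a score of 1120.

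The 4 identical promoters kept a nearly fixed distance from the pairs. No interval lay over any of them. The next interval to the right began 1086 bp after the Gm40369 promoter, 1150 bp after that of Gm40367, 1136 bp after that of Gm36327 and 1122 bp after that of Gm40364. In each case it was the narrow interval of a pair.

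A similar stretch 53.5 kb to the right missed the rule by 1 interval. It lay at 47739946 to 47773157 on chromosome 6 and held 14 intervals with a median score of 778. Its intervals also came mostly in pairs, 6 of them, with gaps of 89 to 202 bp within a pair. Here the first intervals of pairs had scores from 718 to 1259 and the second from 85 to 608. Of its 14 starts, 13 lay about 4.35 kb from another start. The first intervals of successive pairs were 4312 to 9902 bp apart from start to start, less even than in the Rn4.5s run. No interval lay between the stretches, and the long gene Gm40363 covered most of that space.

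The Dxz4 run lay on the X chromosome (75729708 to 75765215) and held 15 intervals over 35.5 kb. Dxz4, listed as 4933407K13Rik, is a long non-coding gene in a tandem repeat. The locus is known to bind CTCF on the inactive X chromosome, at the border between its large folded domains. The sex of the embryos is not given in the labels. All 15 intervals overlapped the gene (75725458 to 75764699), which no protein-coding gene overlapped. The nearest protein-coding gene to the right was Pls3, 20.4 kb away, which encodes an actin-bundling protein. To the left it was Rab39b, a small GTPase gene, 151 kb away.

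Scores varied more in the Dxz4 run than in either run on chromosome 6, from 87 to 7574 with a median of 654. Along the chromosome, the first 5 scores were 183, 232, 7574, 186 and 695. The next 5 were 876, 657, 159, 137 and 654. The last 5 were 131, 2158, 1613, 87 and 3084. A score of 1000 or more was reached by 4 intervals, 2 of them next to each other. The widest, 1231 bp with a score of 3084, covered the Dxz4 promoter at the right end. The highest score belonged to an interval of 392 bp (75734656 to 75735047) inside the gene.

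Spacing in the Dxz4 run was less regular. Starts lay 4843 to 4963 bp from another start for 11 of 15 intervals, with a median of 4.89 kb. Part of that step was itself regular, since 5 of the 14 distances between successive starts lay between 3858 and 3910 bp. With a tolerance of 50 bp in place of 100 bp, 3906 bp was the best step and 9 intervals were spaced by it. The run stood alone on this part of the X chromosome. Its 100 kb on both sides held 4 intervals (0.2 per 10 kb), the nearest 5.8 kb to the left with a score of 2483, at the pseudogene Gm7153. To the right the next interval was 53.4 kb away.

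**Figure D2:**
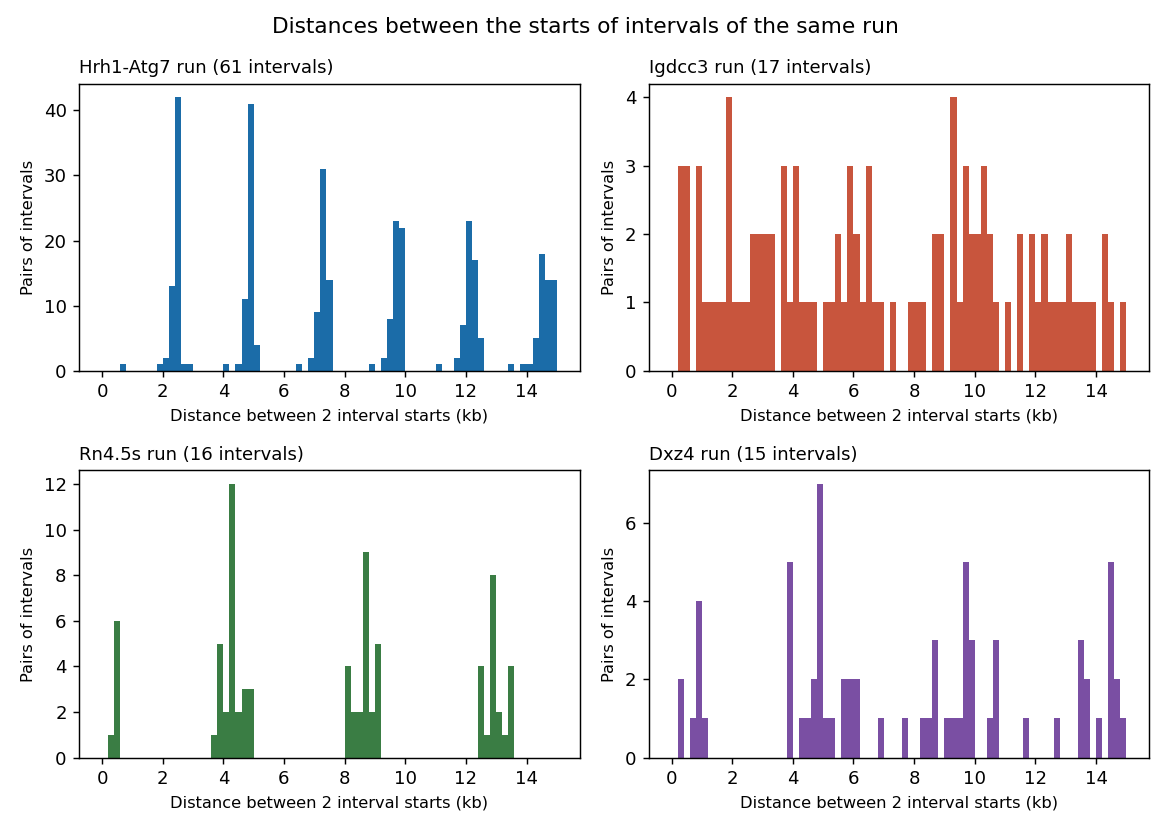
Number of interval pairs (vertical axis) by the distance between their starts in kb, in steps of 0.2 kb (horizontal axis), for each of the 4 runs. Distances pile up at multiples of about 2.44 kb in the Hrh1-Atg7 run and of about 4.31 kb in the Rn4.5s run. The Dxz4 run has a lesser pile near 4.89 kb, and the Igdcc3 run is spread out.

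The Igdcc3 run lay on chromosome 9 (65152628 to 65179495). It was the only member run that lay wholly inside a protein-coding gene, and its spacing was the least regular. All intervals of the Dxz4 run also overlapped a single gene, but a non-coding one. All 17 intervals lay inside Igdcc3, which encodes a cell-surface protein of the immunoglobulin superfamily related to the receptor DCC. The gene spans 65141154 to 65187031 on the plus strand. The run began 11.5 kb after its start and ended 7.54 kb before its end. Exons are not in the gene table used here, so the intervals could not be divided into exonic and intronic. The gene held 19 intervals in all.

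Scores in the Igdcc3 run were lower, from 65 to 655 with a median of 154, and 6 of 17 were below 100. They rose in separate groups. The first 4 intervals had scores of 154, 288, 86 and 207, and the next 3 had 76, 75 and 66. After a gap of 4922 bp came the strongest group, 3 neighbours with scores of 601, 634 and 655, 21.2 to 22.1 kb after the start of the gene. Then followed 148, 279, 157, 65 and 83, and at the end an interval of 969 bp with a score of 609 beside one with 152. Both intervals at the promoter lay outside the run, with scores of 2027 and 4912, and the second began 16 bp before the annotated start.

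The nearest protein-coding gene on each side of the Igdcc3 run was acetylated at an end. Igdcc4, a related gene 14.7 kb to the left, had 1 interval at an end with a score of 1777. Parp16, which encodes an ADP-ribosyltransferase of the endoplasmic reticulum, lay 35.2 kb to the right, with a score of 2767. The nearest gene of any kind to the right, the long non-coding Gm40527, began 13.7 kb from the run and had no interval at an end. The small nuclear RNA genes Gm25313 and Rnu5g, 17.1 and 22.2 kb from the run, had scores of 5548 and 3208. The 100 kb on both sides of the run held 24 intervals, 1.2 per 10 kb.

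Even spacing was compared over all runs of 10 or more intervals. For each run, the step between 1000 and 6000 bp was sought at which the largest share of starts lay within 100 bp of 1 step from another start. That share was 93.4% in the Hrh1-Atg7 run (57 of 61), 93.8% in the Rn4.5s run (15 of 16), 73.3% in the Dxz4 run and 52.9% in the Igdcc3 run. Shares of 90% or more were reached by 7.02% of the 57 runs, which is 4 runs. The others were the stretch next to the Rn4.5s run (92.9%) and a run on chromosome 4 over Ifnz and neighbouring predicted genes (100%). The 53 runs that were not members had a median share of 50%, and 24 of them had a share at or above that of the Igdcc3 run. The measure picks the best step for each run and reaches high values more easily in short runs. The shares also depend on the tolerance. With a tolerance of 50 bp the share was 82% in the Hrh1-Atg7 run, 93.8% in the Rn4.5s run, 60% in the Dxz4 run and 35.3% in the Igdcc3 run. With 200 bp it was 98.4% in the Hrh1-Atg7 run, at a best step of 4873 bp, and 6 of the other 53 runs reached 90%.

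**Figure D3:**
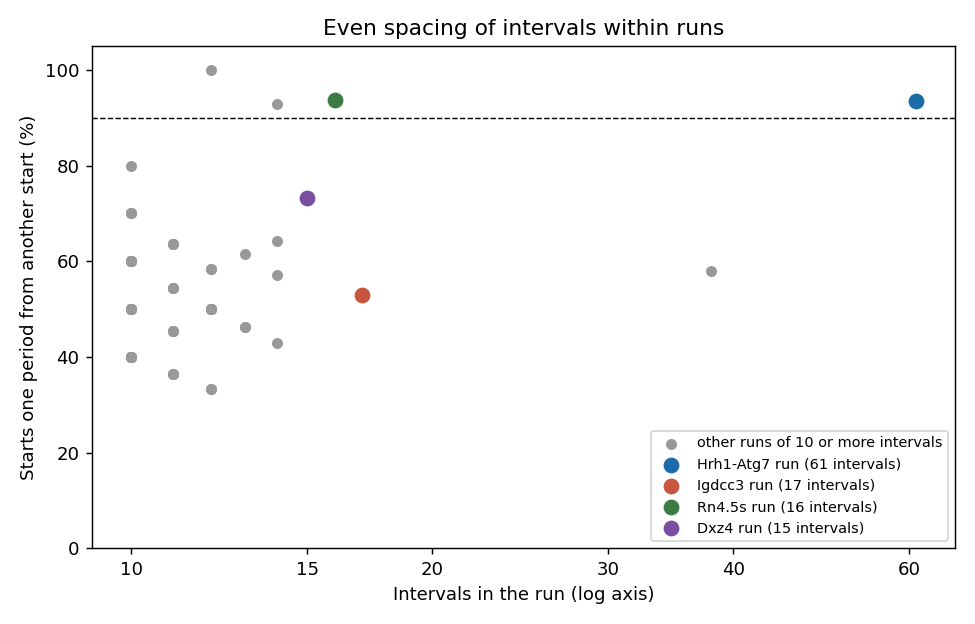
Share of interval starts that lie 1 step from another start, at the best step of each run, in percent (vertical axis) against the number of intervals in the run (horizontal log axis). Coloured points are the 4 dense runs, grey points the other 53 runs of 10 or more intervals, some of which overlap, and the dashed line marks 90%. The Hrh1-Atg7 and Rn4.5s runs lie above the line, at 93.4% and 93.8%.

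Of the 109 members, 3 (2.75%, exact Clopper-Pearson 95% interval 0.571 to 7.83%) reached the 1 kb on either side of an annotated protein-coding gene end. The share over all intervals was 16.5%. With a window of 2.5 kb the shares were 13.8% of members and 20.3% of all intervals. Without the Hrh1-Atg7 run, which holds no gene, 6.25% of the other members lay within 1 kb of an end. All 3 members at ends lay in the Rn4.5s run, at ends of Gm40365, Gm40364 and Gm40363. Another 26 members (23.9%) lay inside protein-coding genes, 17 of them in Igdcc3, and 80 (73.4%) between them. Over all intervals these shares were 40.8% and 42.7%. Ends of genes of any kind held 8 members (7.34%), against 22.5% of all intervals. The confidence interval treats members as independent, and members of 1 run are not.

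Runs overlapped 7 of 21627 protein-coding genes (0.0324%), and the 7 comprise Igdcc3 and the 6 predicted genes. Of 276 genes in the 12 lists for face region factors, crest and mesenchyme factors, signalling, matrix, growth, other lineages, housekeeping and cell types, 0 lay in a run. None was the nearest gene beside one either. At that share of genes in runs, 0 is near the background. The face region, matrix, crest and signalling genes of these lists were acetylated at an end in 32 of 32, 34 of 34, 40 of 42 and 50 of 54 cases, beside 65.8% of all protein-coding genes. The counts were 19 of 20 for housekeeping genes, 22 of 24 for growth genes and 9 of 26 for regulators of other lineages. Of the 8 nearest protein-coding genes beside the runs, 8 had an interval at an end, beside 65.8% of all protein-coding genes, from a score of 231 at Hrh1 to 7390 at Ezh2.

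Members had a higher median width than other intervals but a lower upper quartile. Members had a median width of 326 bp, with quartiles of 225 and 401 bp. The other 125400 intervals had a median of 271 bp, with quartiles of 185 and 472 bp. The higher median was not particular to the members, since the 577 intervals in runs of 10 to 14 had a median of 328 bp. Their quartiles were 204 and 524 bp. Without the Hrh1-Atg7 run the median of the members was 288 bp. The median of the Dxz4 run alone was 265 bp. The median score of all members was 522 (quartiles 255 and 702), against 111 (75 and 251) for the other intervals. Score is part of the rule and members of 1 run are not independent, so scores and ranks are a description. Each member was also ranked by score among the non-member intervals within 10 bp of its width. The median percentile was 93.8 in the Hrh1-Atg7 run, 94.3 in the Rn4.5s run, 92.6 in the Dxz4 run and 63.5 in the Igdcc3 run. All 61 members of the Hrh1-Atg7 run and all 15 of the Dxz4 run lay above the median of intervals of their width, as did 15 of 16 in the Rn4.5s run and 11 of 17 in the Igdcc3 run. Copy number and mappability of these loci were not tested.

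**Figure D4:**
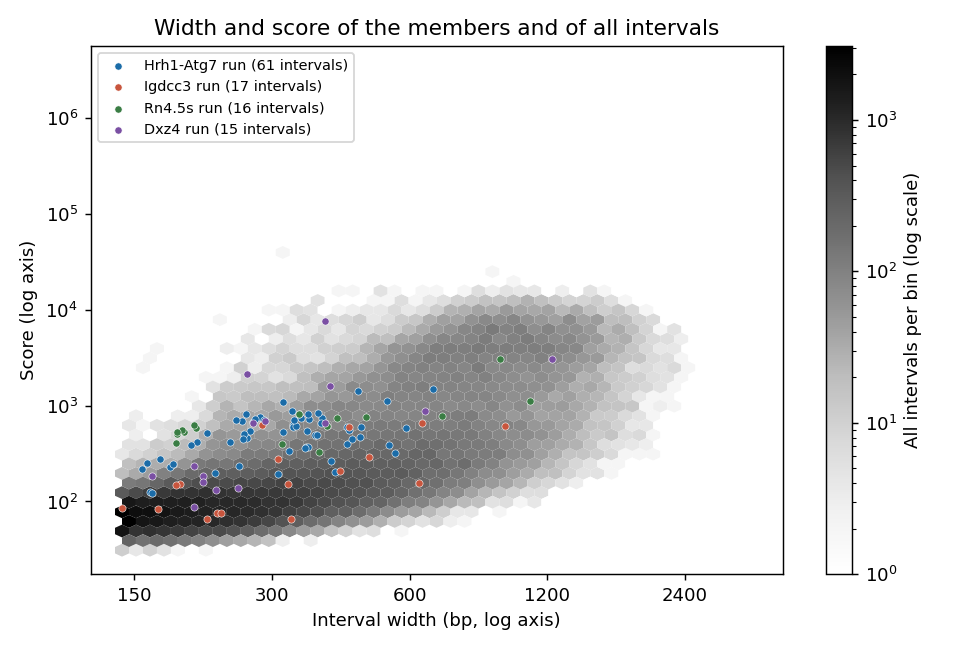
Score (vertical log axis) against width in bp (horizontal log axis) for the 109 members, coloured by run, over all 125509 intervals in grey, with darker bins holding more intervals. Most members of the Hrh1-Atg7, Rn4.5s and Dxz4 runs lie toward the upper edge of the grey cloud for their width, and those of the Igdcc3 run mostly inside it.

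The thresholds of the rule separated the runs as follows. The run of 15 or more that was left out held 38 intervals at the start of the assembled chromosome 9 (3000008 to 3038281), with a median score of 7533 and a highest score of 64025. No gene overlapped it, and the nearest protein-coding gene, Alkbh8, lay 297 kb away. On the inside, the highest median score was 654, in the Dxz4 run. Just below the limit on size lay 4 runs of 14 intervals. These were the stretch next to the Rn4.5s run, a run over 9 histone genes on chromosome 13 from H1f2 to H1f1 with a median score of 1086, a run in Mnd1 on chromosome 3 with 108, and a run outside protein-coding genes on chromosome 13 (59873779 to 59897895) with 112.5.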

How the data were processed

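H3K27ac intervals came from 4 wild-type E10.5 libraries (FNP, Mx, Md and PA2). Per the text deposited with the list, the authors merged their reads and called intervals in MACS2 2.1.3.3. The options recorded there are no model, an extension size of 141 bp, every duplicate retained and q below 0.001, and none names a control. Per the submitters' processing notes, Bowtie 1.1.1 and bcl2fastq 2.17 were among the tools and the build was GRCm38 (mm10). The deposited score of each interval is the authors' value, and depth per library is not given in the sources used here.

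Intervals were joined in pandas 2.3.3 and described with numpy 2.4.6 and scipy 1.17.1. Gene ends came from a RefSeq table of GRCm38.p6 without strand or exons. RefSeq promoters covered 79.9% of protein-coding genes, so annotated ends stayed the main measure and start sites an added alternative. Promoters were aligned with Biopython 1.88. Joining and spacing were tested on 20 simulated sets, and the planted runs and steps were found in 20. The planted steps varied by less than the tolerance and held no pairs or missing positions. The simulation therefore checks the code only, not the spacing reported for the runs. The members and gene lists were chosen with earlier results of these data known. No test was made, since 1 pooled list has no replicates and the members were chosen by position and score. Runs named in the text are those of the members and those next to the thresholds (14 intervals, and a median score of 1000). Genes named are the protein-coding genes a run overlaps and the nearest on each side. The run over Ifnz, the genes that are not protein-coding and the runs on scaffolds and Y were named after their values were seen. Of 277 list genes 276 matched.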

Additional observations from a re-analysis of the deposited data

How the results depend on the processing

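The number of members follows the joining rule. It was 61 in 2 runs with a gap of 3 kb, which split the Hrh1-Atg7 run and lost the other 3, and 1449 in 80 runs with a gap of 8 kb. It was also 61 with 20 or more intervals required and 48 without the Hrh1-Atg7 run. With scores of 100 or more alone it was 77, and the Igdcc3 and Dxz4 runs no longer met the rule. The share of members at protein-coding gene ends, 2.75%, was 0 with a gap of 3 kb, with 20 or more intervals, and with start sites of the promoter table, and 13.8% with a window of 2.5 kb. Over all intervals it was 16.5% in the main setting, 13.6% with those start sites and 20.3% with that window. Protein-coding genes overlapped, 7 in the main setting, were 0 with a gap of 3 kb or 20 or more intervals and 96 with a gap of 8 kb. List genes in runs rose from 0 to 4 of 276 (Bmpr1b, Hand2, Prrx2 and Smad7) with a gap of 8 kb only. The background at that gap is 96 of all 21627 protein-coding genes, and the difference was not tested. The median width stayed within 273 to 355 bp, the 95% interval of the main value, in all alternatives tried. That interval treats members as independent, which members of 1 run are not, and the alternatives share intervals with the main setting. The median of the Dxz4 run alone, 265 bp, lay below it. Leaving out the Hrh1-Atg7 run, start sites and the other tolerances for spacing were chosen after seeing the data. No paired analysis was possible because the list pools its 4 libraries. Depth is unknown, so sites under the caller's limit cannot be called unacetylated.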

Other observations

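Evenly spaced intervals were also found over Ifnz and neighbouring predicted genes on chromosome 4 (88773163 to 88806074). The run held 12 intervals and overlapped 12 protein-coding genes, among them Ifnz, Gm13290 and Gm13288. All 12 starts lay 1 step from another start, with a step of 2.93 kb and a range of 2829 to 2963 bp. The median score was 1274.5. Ifnz encodes a type I interferon, a class of antiviral signalling proteins.

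Sequences outside chromosomes 1 to 19 and X held 317 intervals and 2 runs of 15 or more. One lay on the unplaced scaffold JH584304 (68475 to 114452) with 64 intervals and a median score of 3527.5. The other lay on the unplaced scaffold GL456383 (1989 to 38423) with 20 intervals and a median score of 500, and would have met the limits on size and score. In these runs 64.1% and 35% of starts lay 1 step from another start. On the Y chromosome the largest run held 12 intervals (90760611 to 90777279), with a median score of 509.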
